A study of Homo sapiens with 27 samples.

Results

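DEAD-box and DEAH-box RNA helicases use ATP to open short RNA duplexes and to strip proteins from RNA, and different members act at splicing, export, translation and ribosome assembly. The 10 genes described here were DDX3X, DDX5, DDX17, DDX21, DDX39A, DDX39B, DHX9, EIF4A1, EIF4A2 and EIF4A3. They were selected on an earlier result of these same data, namely that DDX3X transcripts annotated with a retained intron fell, so the values of DDX3X are given as a description with no test. The members were all transcripts whose GENCODE release 44 symbol was one of these 10. Of 254 annotated transcripts, 143 were listed with a count in at least 1 library, out of 93530 transcripts listed in all, and 30 passed the filter on low counts.

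The cells were RM82, a line established from an Ewing sarcoma. They were given the inhibitor SGC-CLK-1 (3 libraries, labelled CLK1) or the solvent DMSO (3 libraries), and the treatment lasted 24 h. CLK1 is a kinase that phosphorylates SR proteins, a family of splicing factors, and the study used its inhibitor to disturb splicing. cDNA made from an oligo(dT) primer, with unique molecular identifiers (UMIs) on each molecule, is described for this experiment, which the study sequenced by nanopore and by Illumina. The files analysed here were read as the nanopore libraries because they hold counts per transcript, and the deposited value is the count of UMIs.

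The total count was 666702, 362826 and 373004 in the SGC-CLK-1 libraries (replicates 1, 2 and 3) and 416352, 523456 and 372876 in the DMSO libraries. All counts below are given in this order of replicates. CPM is the count scaled to a library total of 1000000, and a fold change is SGC-CLK-1 over DMSO. The 10 genes took between 0.232% and 0.315% of the counts of a library. The study's reporting summary states in general that experiments were repeated independently, but the labels do not say whether the libraries of a group came from separate cultures, so p-values measure the spread between these libraries, which may be technical in part. In bulk RNA, fewer cells of a kind and less RNA per cell cannot be told apart.

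Markers of Ewing sarcoma were in part absent, and which fusion RM82 carries was not tested. Of 11 Ewing sarcoma markers, 6 were tested, with 0 past an adjusted p of 0.05 in edgeR (1 lower and 2 higher at an unadjusted p under 0.05, and 0 called by DESeq2). Of all 6344 gene sums, 0.236% passed in edgeR and 442 were lower and 437 higher at that unadjusted p, and DESeq2 called 107. The log2 fold changes of the 6 markers ran from -0.50 ± 0.27 for CD99 to 0.60 ± 0.25 for JAK1 (edgeR adjusted p = 0.448 and 0.293). NKX2-2 and FLI1, a partner in the usual Ewing fusion, had no count in any library, whereas CCND1, the most abundant of the list, had 1464 counts in total and CD99 had 335. Of 9 plasma cell markers, 6 had no count. CD38 held 199 of the counts of that list, whose summed level was 82.5, 79.9 and 77.8 CPM with SGC-CLK-1 and 79.3, 87.9 and 59.0 CPM with DMSO. Leukocyte markers summed to a mean of 27.4 CPM with SGC-CLK-1 and 25.8 CPM with DMSO, with PTPRC the most abundant at 42 counts and CD3E at 0. Epithelial markers summed to 40.8 and 52.2 CPM, and KRT8 held 105 of their counts, with 4 counts of EPCAM. Of the 17 genes of these 3 lists, 2 had counts enough for a test, CD38 (log2 fold change -0.18 ± 0.29) and KRT8 (-0.70 ± 0.48), and 0 of them passed an adjusted p of 0.05 in edgeR or DESeq2 or an unadjusted p under 0.05 in edgeR. No leukocyte marker was tested.

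DDX3X is an X-linked DEAD-box helicase that promotes translation of mRNAs with structured leaders. Its gene sum was 143, 99 and 124 counts with SGC-CLK-1 and 310, 350 and 234 counts with DMSO. Every SGC-CLK-1 library was below every DMSO library, at 273 ± 59.0 CPM (SD, n = 3) against 680 ± 59.4 CPM. Such a separation was seen in 7.66% of all gene sums, and nothing is read from it for DDX3X. The log2 fold change was -1.40 ± 0.21 (SE). The values differed between the annotated classes of DDX3X transcript, and this difference was not tested. The sum of transcripts annotated with a retained intron was 98, 61 and 69 counts against 231, 287 and 198 counts, a log2 fold change of -1.76 ± 0.20. Protein-coding transcripts gave 31, 26 and 41 counts against 61, 48 and 29 counts, with overlapping groups and a log2 fold change of -0.55 ± 0.34. Transcripts annotated for nonsense-mediated decay (NMD), which destroys mRNAs with an early stop codon, gave 14, 12 and 14 counts against 18, 15 and 7 counts, and here too the groups overlapped. The retained-intron share of the gene's counts was 61.9% ± 6.45 with SGC-CLK-1 and 80.4% ± 5.24 with DMSO. Here and below, a molecule may have been counted on several transcripts, so a class share may differ from the share of molecules. Over all genes, edgeR called 0.928% of 754 retained-intron sums lower, and nothing is read from this for DDX3X, on whose retained-intron transcripts the genes were selected.

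**Figure D1:**
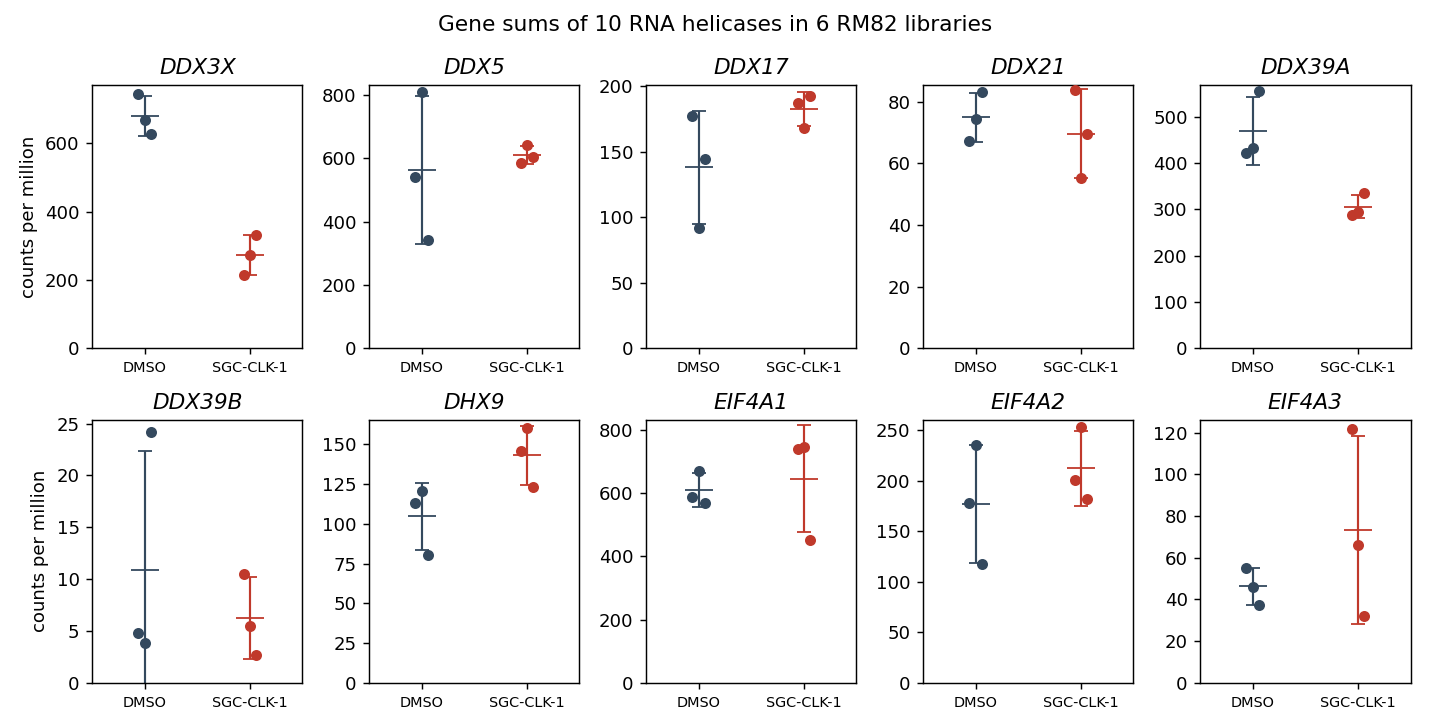
CPM (y axis, linear, from 0) of the summed transcripts of each helicase gene in the 3 DMSO and 3 SGC-CLK-1 libraries. Points are libraries in order of replicate number, wide ticks are means and bars are SD, cut off at 0 for DDX39B. DDX3X lies between 214.5 and 332 CPM with SGC-CLK-1 and between 628 and 745 CPM with DMSO.

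The 7 DDX3X transcripts that passed the filter on low counts had an exon structure in common. They were DDX3X-248, DDX3X-226, DDX3X-250, DDX3X-261, DDX3X-225, DDX3X-223 and DDX3X-252, and they were the only helicase transcripts among the 310 called at an adjusted p under 0.05 by edgeR, where 3.95% of all 7840 transcripts were called and 2.1% were called lower. These calls are those on which the genes were selected, and nothing is read from their number. The filter asked for 10 counts at the median library size (25.3 CPM) in 3 libraries. All 7 reached this in the 3 DMSO libraries, 0 of the 7 in the 3 SGC-CLK-1 libraries and 4 of the 7 in no SGC-CLK-1 library, so they entered through the group in which they were higher. In the MANE Select transcript, the reference isoform of the gene with 17 exons, intron 3 lies at chrX:41339084-41341483 (GRCh38, plus strand) and is 2400 bases long. All 7 transcripts begin inside this intron, at 7 positions within the 113 bases of chrX:41339910-41340022. Each runs through the 3′ end of intron 3 into exon 4 without a splice, so that all of them share the 1595 bases of chrX:41340022-41341616. They differ after that. In 4 of them exon 4 runs on through intron 4 (878 bases, chrX:41341617-41342494), and in 3 it is joined to exon 5. The biotype is retained intron for 6 of them and protein coding for 1, DDX3X-225. The splice sites of both introns are shown because all 7 transcripts read across the 3′ site of intron 3 and they differ in whether intron 4 is removed. Each stretch has 30 bases, written 5′ to 3′ on the plus strand, with the first or last 2 bases of the intron in capitals. The last line is the start of the transcript with the earliest start, and capitals mark its run of 22 T.
DDX3X intron 3, 5′ splice site, chrX:41339074-41339103: gctactaaagGTaggtcctcacaagtaact
DDX3X intron 3, 3′ splice site, chrX:41341464-41341493: ttgtgcttttttaatcaaAGgtttctacga
DDX3X intron 4, 5′ splice site, chrX:41341607-41341636: caaggggaagGTaagtgatttcttaatcac
DDX3X intron 4, 3′ splice site, chrX:41342475-41342504: taattgcttgtgctgttcAGgtttgatgat
DDX3X-248 start, chrX:41339910-41339939: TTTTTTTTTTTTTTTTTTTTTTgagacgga

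**Figure D2:**
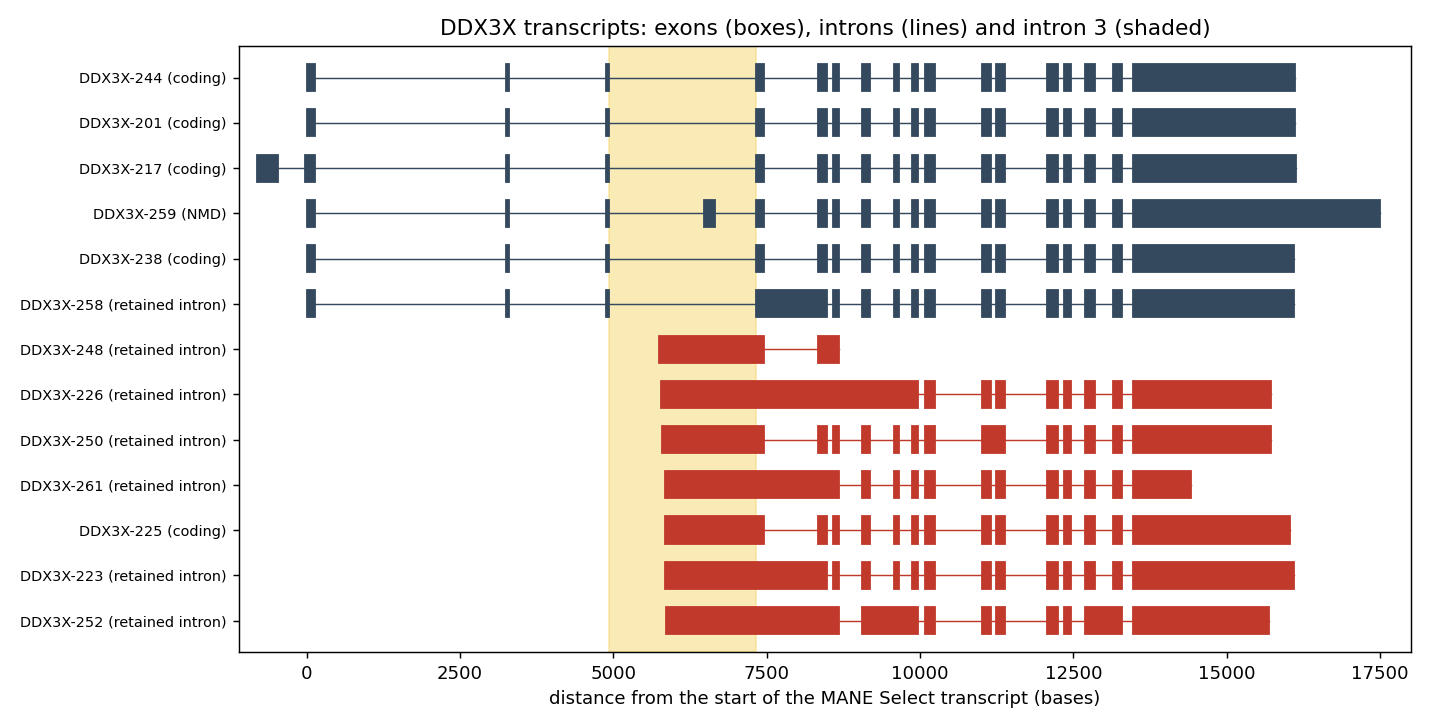
Exons (boxes) and introns (lines) of the 7 DDX3X transcripts past the filter on low counts, which begin in intron 3 (red) and of the MANE Select transcript, DDX3X-244, with the 5 next most abundant DDX3X transcripts (dark), along the distance in bases from the start of DDX3X-244. Intron 3 is shaded, and all 7 red transcripts start inside it and read without a splice into exon 4.

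DDX3X-248 (ENST00000645253) begins furthest upstream and retains intron 5. It had 17, 10 and 9 counts with SGC-CLK-1 and 48, 69 and 49 counts with DMSO, a log2 fold change of -2.28 ± 0.28. DDX3X-226 (ENST00000642589), whose first exon runs through introns 4 to 8, had 16, 9 and 10 counts against 47, 65 and 46 counts (-2.24 ± 0.28). DDX3X-250 (ENST00000645380), which splices intron 4 and retains intron 11, had 15, 9 and 13 counts against 44, 65 and 46 counts (-2.12 ± 0.28). These 3 transcripts had almost the same counts in each library although their structures differ downstream of exon 4. Mapping allowed secondary alignments, so 1 molecule may have been counted on several of them. Whether this happened was not tested, so the 7 transcripts cannot be taken as 7 separate measurements.

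The other 4 begin further downstream, between chrX:41340006 and 41340022, and had lower counts. DDX3X-223 (ENST00000642161) had 7, 5 and 4 counts against 22, 23 and 20 counts, and DDX3X-252 (ENST00000645574) had 6, 2 and 4 counts against 21, 26 and 13 counts. DDX3X-261 (ENST00000646390) had 5, 4 and 4 counts against 15, 19 and 11 counts. The protein-coding DDX3X-225 (ENST00000642424), the most abundant coding transcript of the gene, had 5, 6 and 4 counts against 15, 20 and 12 counts, a log2 fold change of -1.69 ± 0.43. In each of the 7 transcripts all SGC-CLK-1 libraries were below all DMSO libraries, as in 11.7% of all 7840 transcripts tested. The log2 fold changes of the 7 lay between -2.37 and -1.69, and nothing is read from this count, since the genes were selected on it and the 7 passed the filter through their DMSO counts.

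Together these 7 transcripts had 71, 45 and 48 counts with SGC-CLK-1 and 212, 287 and 197 counts with DMSO. Their level was 120 ± 11.7 CPM (SD, n = 3) with SGC-CLK-1 and 529 ± 19.6 CPM with DMSO, 4.42-fold lower. The 62 other annotated DDX3X transcripts, of which 42 were listed, had 72, 54 and 76 counts against 98, 63 and 37 counts, which is 153.5 ± 48.1 CPM and 152 ± 73.3 CPM. Their groups overlapped, and DMSO replicate 1 held the highest level. When the 7 transcripts were left out of the gene sum, a step chosen after their values were seen, the log2 fold change of DDX3X was -0.067 ± 0.32 in place of -1.40. The 7 transcripts are also the DDX3X transcripts past the filter, which they passed through their DMSO counts, so the difference between them and the other 62 is a description only. Their share of the gene's counts was 49.7%, 45.5% and 38.7% with SGC-CLK-1 and 68.4%, 82.0% and 84.2% with DMSO.

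Among the 50 DDX3X transcripts that begin upstream of intron 3, 15 are annotated with a retained intron. These had 26, 19 and 22 counts with SGC-CLK-1 and 28, 18 and 12 counts with DMSO, or 50.1 ± 10.2 CPM and 44.6 ± 19.6 CPM, with overlapping groups. The 19 coding transcripts that begin upstream of intron 3 had 25, 20 and 37 counts against 45, 25 and 16 counts, again overlapping. The MANE Select transcript DDX3X-244 alone had 5, 5 and 8 counts against 8, 4 and 4 counts. Another 2 annotated transcripts begin nearer the end of intron 3, of which 1 was listed. They had 6 counts in all, 1, 0 and 0 counts against 1, 3 and 1 counts. Each of these transcripts was under the filter on low counts and was not tested alone.

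The stretch in which the 7 transcripts begin is repeated elsewhere. A run of T followed by gagacgga is how an Alu element, a common mobile repeat of primate genomes, begins when it lies in the antisense direction. The 300 bases from the earliest start matched, on the same strand, 6278 annotated transcripts of 3434 genes, and they matched DDX3X-248 itself once more, from its base 1122 (254 bases aligned, 87.0% identical). DDX3X transcripts that begin in a match of the repeat were not limited to the 7. The match began within the first 60 bases in 635 transcripts, 627 of them outside DDX3X. Outside DDX3X, 18 of these were tested and 0 were called by edgeR (2 lower and 1 higher at an unadjusted p under 0.05, and 0 called by DESeq2), with log2 fold changes between -0.91 (RPL4) and 0.64 (ENSG00000290870) and a median of -0.17. Transcripts of genes other than DDX3X with the match at any position numbered 740 among those tested, of which edgeR called 6 lower and 6 higher (46 lower and 59 higher at an unadjusted p under 0.05, and 2 called by DESeq2). Of all 7840 transcripts, edgeR called 3.95%, 714 were lower and 700 higher at that unadjusted p, and DESeq2 called 113. The comparison of transcripts with the repeat was chosen after the starts of the DDX3X transcripts were seen. Whether reads from other copies of the repeat were counted on DDX3X was not tested.

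**Figure D3:**
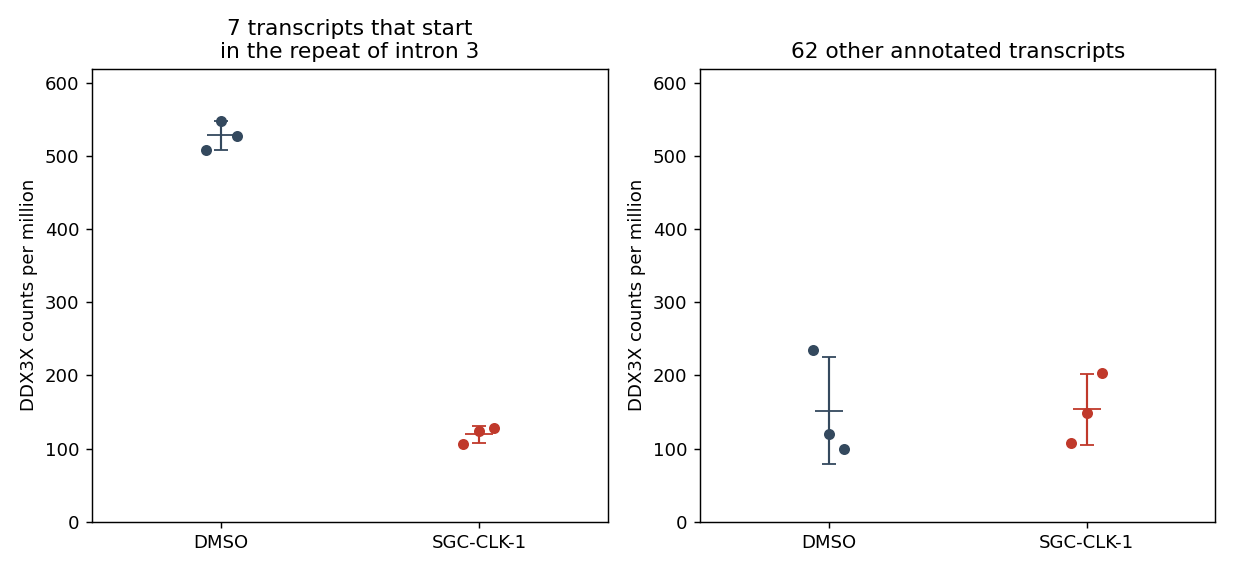
Summed DDX3X CPM (y axis, linear, from 0) of the 7 transcripts past the filter on low counts, which begin in intron 3 (left), and of the 62 other annotated transcripts (right), in the 3 DMSO and 3 SGC-CLK-1 libraries. Points are libraries, wide ticks means and bars SD. The groups are apart on the left (107 to 129 CPM against 509 to 548 CPM) and overlap on the right.

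Usage of transcripts within a gene, which asks whether a transcript changed against the others of its gene, could be tested in 6 of the other helicase genes. In edgeR's usage test 0 of the 6 passed an adjusted p of 0.05, where 0.277% of 1805 genes did, and 0 passed an unadjusted p under 0.05. The unadjusted p of that test ran from 0.944 (EIF4A2) to 0.99 (DDX17 and DDX21). A molecule may have been counted on several transcripts of its gene, so the test may have been unable to show a difference, and nothing is read from it. In DDX3X only the 7 overlapping transcripts described above entered the fit, so it says nothing about them against the rest of the gene.

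Of the other helicases, no gene sum, class sum or transcript passed an adjusted p of 0.05. In edgeR this was 0 of 8 tested gene sums (1 lower at an unadjusted p under 0.05), where 0.236% of gene sums were called. Over all 6344 gene sums, 442 were lower at that unadjusted p. It was 0 of 17 gene-by-class sums (3 lower at an unadjusted p under 0.05), where 0.979% of 6946 sums were called and 514 were lower at that unadjusted p. It was 0 of 23 transcripts (3 lower at an unadjusted p under 0.05), where 3.95% of 7840 transcripts were called and 714 were lower at that unadjusted p. Each of these helicase sums and transcripts lower at that unadjusted p in edgeR was of DDX39A alone, and they may share reads. DESeq2 also called 0 of the gene sums, class sums and transcripts of the other helicases (1, 2 and 1 at an unadjusted p under 0.05). Over all features it called 107 of 6344 gene sums, 128 of 6946 gene-by-class sums and 113 of 7840 transcripts. The median log2 fold change of the 8 gene sums was 0.11, beside -0.0012 over all gene sums, and that of the 5 other retained-intron sums was 0.27, beside -0.028 over all 754.

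**Figure D4:**
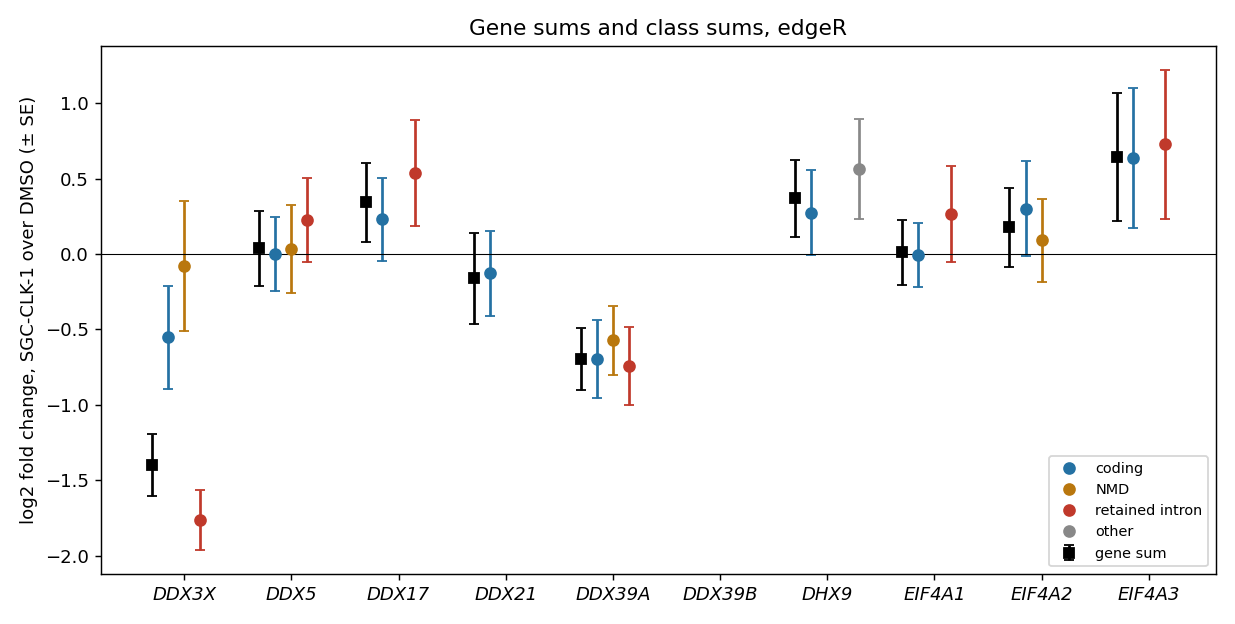
Fitted log2 fold change of SGC-CLK-1 over DMSO (y axis, ± SE) for the gene sum (black squares) and for the sums of coding, NMD, retained-intron and other transcripts (coloured circles) of each helicase gene, where the filter on low counts was passed. DDX39B has no value. The retained-intron sum is the lowest of the DDX3X values at -1.76, and the 3 class sums of DDX39A lie between -0.74 and -0.57.

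DDX39A and DDX39B are close relatives that load the export machinery onto spliced mRNA, and DDX39B, also called UAP56, has a role in the assembly of the spliceosome. DDX39A had 192, 107 and 125 counts with SGC-CLK-1 and 176, 226 and 207 counts with DMSO. Its level was 306 ± 25.4 CPM against 470 ± 74.0 CPM, and every SGC-CLK-1 library was below every DMSO library, as in 7.66% of all gene sums. The log2 fold change was -0.70 ± 0.21 and did not pass the test (edgeR adjusted p = 0.133). Its classes had like values, with log2 fold changes of -0.70 ± 0.26 for coding, -0.57 ± 0.23 for NMD and -0.74 ± 0.26 for retained-intron transcripts (edgeR adjusted p = 0.206, 0.247 and 0.180). The SGC-CLK-1 libraries were also below the DMSO libraries in each of the 3 classes, as in 8.75% of all 6946 gene-by-class sums, and the 3 classes share libraries and may share reads. Retained-intron transcripts made up 33.8% ± 3.96 of the gene's counts with SGC-CLK-1 and 35.2% ± 4.34 with DMSO. The most abundant coding transcript, DDX39A-201 (ENST00000242776, the MANE Select form), had 61, 28 and 39 counts against 50, 70 and 66 counts. DDX39A-209 (ENST00000589318), which retains introns 6 (342 bases) and 8 (88 bases), had 56, 34 and 35 counts against 48, 58 and 62 counts. Their log2 fold changes were -0.64 ± 0.24 and -0.52 ± 0.24 (edgeR adjusted p = 0.138 and 0.254). DDX39A-206 (ENST00000587730), which retains the same introns as DDX39A-209, had 4, 4 and 4 counts against 15, 10 and 19 counts. It was under the filter on low counts and was not tested. Between 92.5% and 93.4% of a library's counts were on identifiers matched to a gene, and whether the rest held DDX39B reads was not tested. DDX39B had 7, 2 and 1 counts against 2, 2 and 9 counts and was too low to test. Its most abundant coding transcript, ENST00000458640, had 5, 0 and 1 counts against 0, 1 and 3 counts, and ENST00000474961, with the retained-intron label, had 2 counts in DMSO replicate 3 alone.

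EIF4A1 and EIF4A2 are the helicases of the cap-binding complex that prepares mRNA for the ribosome. EIF4A1 had 493, 270 and 168 counts with SGC-CLK-1 and 244, 351 and 212 counts with DMSO, at 645 ± 168 CPM against 608 ± 54.5 CPM. The groups overlapped, with the lowest level in SGC-CLK-1 replicate 3 (450 CPM), and the log2 fold change was 0.012 ± 0.22 (edgeR adjusted p = 0.989). EIF4A1-201 (ENST00000293831), its MANE Select form, had 217, 111 and 76 counts against 111, 150 and 89 counts. EIF4A1-207 (ENST00000578324), which retains intron 9, had 67, 49 and 19 counts against 29, 46 and 31 counts. Neither passed the test (log2 fold changes of 0.090 ± 0.21 and 0.26 ± 0.28, edgeR adjusted p = 0.868 and 0.684). That of EIF4A1-207 was 0.0018 without SGC-CLK-1 replicate 2 and 0.56 without SGC-CLK-1 replicate 3. EIF4A2 had 134, 92 and 68 counts against 74, 123 and 44 counts, with overlapping groups and a log2 fold change of 0.18 ± 0.26 (edgeR adjusted p = 0.821). Transcripts annotated for NMD held 46.6% ± 3.27 of its counts with SGC-CLK-1 and 50.4% ± 3.56 with DMSO. Its most abundant coding transcript by mean CPM, ENST00000440191, had 29, 24 and 13 counts against 12, 27 and 9 counts, and EIF4A2-219 (ENST00000485101), the most abundant one with retained introns, had 8, 9 and 6 counts against 6, 9 and 2 counts.

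EIF4A3 is the helicase that clamps the exon junction complex onto spliced mRNA. It had 81, 24 and 12 counts with SGC-CLK-1 and 23, 24 and 14 counts with DMSO. SGC-CLK-1 replicate 1 was far above all other libraries, at 121.5 CPM beside 66.2 and 32.2 CPM in its own group. The log2 fold change was 0.64 ± 0.42 (edgeR adjusted p = 0.543), and without that library it was -0.0058 (edgeR adjusted p = 0.997). Its most abundant coding transcript, EIF4A3-209 (ENST00000649764), had 25, 8 and 4 counts against 8, 5 and 5 counts. EIF4A3-202 (ENST00000570837), the most abundant with the retained-intron label, had 5, 3 and 2 counts against 5, 12 and 3 counts.

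DDX5 (p68) and DDX17 (p72) are paralogs that take part in splicing, transcription and microRNA processing. DDX5 had 390, 233 and 225 counts with SGC-CLK-1 and 225, 423 and 128 counts with DMSO. The SGC-CLK-1 libraries were close together (610 ± 29.2 CPM), whereas the DMSO libraries were spread (564 ± 233 CPM), with replicate 2 the highest and replicate 3 the lowest of all 6. The log2 fold change was 0.037 ± 0.25 (edgeR adjusted p = 0.968). DDX5-201 (ENST00000225792), the MANE Select form, had 99, 64 and 60 counts against 55, 113 and 33 counts. DDX5-215 (ENST00000581230), which retains intron 11, had 64, 40 and 40 counts against 35, 59 and 22 counts, and a log2 fold change of 0.27 ± 0.25 (edgeR adjusted p = 0.637). This value was 0.050 without DMSO replicate 3 and 0.54 without DMSO replicate 2. Retained-intron transcripts made up 17.3% ± 0.440 of DDX5 counts with SGC-CLK-1 and 15.6% ± 1.503 with DMSO.

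DDX17 had 125, 61 and 72 counts with SGC-CLK-1 and 74, 48 and 54 counts with DMSO. The groups overlapped through DMSO replicate 1, and the log2 fold change was 0.34 ± 0.26 (edgeR adjusted p = 0.616). It was 0.10 without DMSO replicate 2 and 0.54 without DMSO replicate 1. Its retained-intron sum was 37, 15 and 20 counts against 19, 14 and 11 counts, with a log2 fold change of 0.54 ± 0.35 (edgeR adjusted p = 0.514). DDX17-203 (ENST00000403230), the MANE Select form, had 36, 22 and 21 counts against 26, 18 and 20 counts. DDX17-201 (ENST00000216019), which retains intron 11, had 23, 9 and 12 counts against 14, 11 and 9 counts.

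DHX9, a DEAH-box helicase that opens double-stranded RNA and RNA-DNA hybrids, had 97, 58 and 46 counts against 47, 63 and 30 counts. Every SGC-CLK-1 library was above every DMSO library (143 ± 18.4 CPM against 105 ± 21.2 CPM), as in 12.2% of all gene sums, but the log2 fold change of 0.37 ± 0.26 did not pass the test (edgeR adjusted p = 0.562). For DHX9 this value was 0.24 without DMSO replicate 3 and 0.48 without DMSO replicate 2. DHX9-201 (ENST00000367549), its one coding transcript with counts enough to test, had 51, 36 and 27 counts against 30, 37 and 20 counts. DDX21, a nucleolar helicase of ribosomal RNA processing, had 56, 20 and 26 counts against 28, 39 and 31 counts and a log2 fold change of -0.16 ± 0.30 (edgeR adjusted p = 0.862). This value was -0.35 without SGC-CLK-1 replicate 1 and -0.029 without SGC-CLK-1 replicate 2. All counts of DDX21 fell on coding transcripts, and DDX21-201 (ENST00000354185) had 28, 10 and 14 counts against 14, 21 and 16 counts.

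Partners and relatives of the 10 helicases were taken from lists. Of 40 other DEAD-box and DEAH-box genes, 29 were tested by edgeR and 0 passed an adjusted p of 0.05 (1 higher at an unadjusted p under 0.05, and 0 called by DESeq2). For this list and the 3 that follow, 0.236% of all 6344 gene sums passed in edgeR and 442 were lower and 437 higher at that unadjusted p. DESeq2 called 107 of the 6344 gene sums. A count of 0 in lists of this size is near the background. The median log2 fold change of the 29 was 0.084, from DDX19A (-0.53 ± 0.27) to DDX42 (1.41 ± 0.42, edgeR adjusted p = 0.136). DDX42, a helicase of the spliceosome, had 46, 21 and 54 counts against 19, 15 and 8 counts, and every SGC-CLK-1 library was above every DMSO library, as in 12.2% of all gene sums. All 10 partners of eIF4A were tested and 0 passed in edgeR or DESeq2, with 0 at an unadjusted p under 0.05. They ranged from the translation repressor EIF4EBP1 (-0.45 ± 0.45) to the scaffold protein EIF4G2 (0.35 ± 0.19), with a median of 0.14.

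Of 9 partners of the exon junction complex, 7 were tested and 0 passed in edgeR or DESeq2, with 0 at an unadjusted p under 0.05. The lowest value was that of UPF3B (-0.74 ± 0.36), a decay factor that binds the complex, and the highest that of CASC3 (0.76 ± 0.52), one of its core subunits. Of 14 mRNA export genes that act with DDX39A and DDX39B, 9 were tested and 0 passed in edgeR or DESeq2, with 1 lower and 1 higher at an unadjusted p under 0.05. THOC2, the scaffold of the THO complex, had 172, 107 and 117 counts against 138, 237 and 272 counts, and a log2 fold change of -0.89 ± 0.27 (edgeR adjusted p = 0.142). ALYREF, an export adaptor, had 48, 23 and 34 counts against 18, 17 and 16 counts and a log2 fold change of 0.86 ± 0.33 (edgeR adjusted p = 0.257).

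The gene-by-class sums outside the 10 genes with the pattern most like that of the DDX3X retained-intron sum were found by the mean absolute difference of log2 CPM, centred on the mean over the 6 libraries. The nearest was the NMD sum of HSP90AA1, a heat-shock chaperone, at 0.168, with 180, 104 and 123 counts against 293, 397 and 305 counts. It was followed by the sum of CENPF transcripts of the class other, which are neither coding, NMD nor retained intron by label (0.171), and the retained-intron sum of NUTF2 (0.176), which carries Ran into the nucleus. The retained-intron sum of NUP98 (0.204), a nucleoporin, and the coding sum of SEL1L (0.218), a subunit of an ER degradation ligase, were next. The groups overlapped in none of these 5, which were chosen for their likeness and carry no test.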

How the data were processed

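The 6 RM82 libraries were analysed, and the other samples were not used here. According to the study's methods, bases were called with Guppy, UMIs were read and corrected, and reads were mapped by minimap2 (2.22 in the submitters' processing notes) to Ensembl release 98 transcripts of hg38 with up to 3 secondary alignments. The authors deposited counts of UMIs per transcript, with no normalization. The methods describe UMI-tools and homotrimer deduplication, and which of them made these files is not given in the sources used here. The study sequenced this experiment by nanopore and Illumina, and the extraction label, which names an Illumina kit, does not say which. The files were read as nanopore because counts per transcript are described for nanopore reads.

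Identifiers without version were matched to GENCODE release 44 (86362 of 93530 matched, 18776 genes), and a transcript not listed in a library was given 0. Counts were also summed by gene and by gene and class, so that a molecule counted on several transcripts enters a sum more than once. R 4.3.3 and edgeR 4.0.16 were used (filterByExpr with a minimum count of 10 and total of 15, TMM scaling and the quasi-likelihood test, with p adjusted by Benjamini and Hochberg and called under 0.05, and diffSpliceDGE for usage), with all features fitted. DESeq2 1.42.0 was an alternative. Functions were tested on simulated data. Repeat matches used BLAST 2.17.0 (blastn, expect value 1e-20, no masking).

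The members, gene lists and tests were chosen with earlier results of these data known. Named were the most abundant coding and retained-intron transcript of each gene and the DDX3X transcripts past the filter. DDX39A-206, which shares its retained introns with DDX39A-209, was added after its values were seen. Also named were list genes past the threshold or else the lowest and highest of each list, and the 5 class sums nearest to DDX3X. Pseudogenes of the members held at most 6 counts per member. The Y-linked relative of DDX3X was not analysed.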

Additional observations from a re-analysis of the deposited data

How the results depend on the processing

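Of the helicases other than DDX3X, 0 gene sums, retained-intron sums and named transcripts passed an adjusted p of 0.05 under any alternative run. DDX39A came nearest, with log2 fold changes between -0.79 and -0.54 and adjusted p between 0.0776 and 0.373 over 13 alternatives. Over scalings, filters, tests and single libraries left out, the DDX3X gene sum lay between -1.58 and -1.26 and its retained-intron sum between -1.84 and -1.68. The largest transcript count in place of the sum gave -2.14 for DDX3X, and leaving out the 7 transcripts gave -0.067, both chosen after seeing the data.

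The numbers of calls in the whole table moved more. With no filter on low counts, 162 transcripts, 169 genes, 150 gene-by-class sums and 2 genes with changed usage were called. With at least 10 counts in every library, these were 173 transcripts, 64 genes and 1 gene with changed usage. DESeq2 called 113 transcripts, 107 genes and 128 class sums. Scaling by library size alone gave 28 genes, and the largest transcript of each gene gave 164 genes. Libraries with the same replicate number in the titles had correlations of deviations of 0.059, 0.093 and -0.002. Those with unlike numbers lay between -0.12 and 0.067. With so few libraries these values cannot decide whether the numbers pair the libraries. With the replicate number as a block, 427 transcripts, 36 genes, 90 class sums and 4 genes with changed usage were called, beside 310, 15, 68 and 5 without it. Leaving out 1 library gave between 81 and 363 transcripts, 1 and 21 genes, 3 and 41 class sums, and 1 and 5 usage genes. The fewest calls came without SGC-CLK-1 replicate 2 for transcripts and class sums.

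EIF4A3 rested on SGC-CLK-1 replicate 1: its gene sum of 0.64 was -0.0058 and its retained-intron sum of 0.73 was -0.15 without it (range up to 0.96 and 1.07 without other libraries). Other values also changed sign when single libraries were left out. The range was -0.21 to 0.39 for DDX5 (below 0, at -0.0021, -0.017 and -0.21, without SGC-CLK-1 replicate 2, DMSO replicate 1 and DMSO replicate 3), -0.12 to 0.20 for EIF4A1 (-0.017 with the block) and -0.026 to 0.44 for EIF4A2. For the retained-intron sum of EIF4A1 it was -0.014 to 0.53. For single transcripts it was -0.14 to 0.55 in DDX5-201, -0.028 to 0.41 in DDX17-203, -0.23 to 0.078 in DDX21-201 and -0.036 to 0.29 in EIF4A1-201. The cause of these shifts was not tested. DDX39B and the DDX3X transcripts other than the 7 were under the filter on low counts and were not tested one by one.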
